A study of Homo sapiens with 3 samples.

Results

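The genes described here build the protein-folding machinery of the endoplasmic reticulum (ER): its chaperones, its disulfide-forming enzymes, ER-associated degradation (ERAD) and the transfer of N-glycans. The set holds 36 genes, listed by name and role, with earlier results of these arrays known, out of 19775 genes that had a probe set naming 1 gene. For 35 of the 36 there was such a probe set, and 34 had an intensity above a floor of 10.5 on at least 1 array. SYVN1 had no probe set naming it alone, and ERO1B lay below the floor on all 3 arrays. The arrays came from UM-UC-3, an established human bladder cancer cell line, transfected with 75 nM of 1 siRNA and collected after 48 h. The control group received a negative control siRNA, and the other groups received DANCR siRNA1 or DANCR siRNA2, which the labels name for the long noncoding RNA DANCR, although the tag for their target points names the coding sequence of WDR5. There was 1 Affymetrix array per group and no untransfected sample. The siRNAs are shown because they are the treatment that sets the groups apart, as the labels give them, with a tt overhang.
control siRNA: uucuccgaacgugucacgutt
DANCR siRNA1: gcguacuaacuuguagcaatt
DANCR siRNA2: gagcuagagcagugacaautt

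DANCR stood at 17.3% of its control intensity with siRNA1 and at 18.8% with siRNA2. The ACTB 3′/5′ ratio, a sign of RNA integrity, was 11.9 on the control array, 11.8 on the siRNA1 array and 14.4 on the siRNA2 array, and that of GAPDH was 1.25, 1.29 and 1.35. Of 13 urothelial markers with a probe set, 6 lay above the floor (KRT7, KRT8, KRT18, GATA3, FOXA1 and PPARG), and all 4 uroplakins lay at or below it. Their summed intensity was 1453 on the control array, 839 on the siRNA1 array and 1170 on the siRNA2 array, of which KRT18 alone gave 1315, 711 and 1022. Markers of leukocytes, endothelium, fibroblasts, erythroid cells and liver reached at most 63.2, and 8 of the 15 with a probe set lay above the floor. The part of RNA integrity and of marker levels in the results was not tested. With 1 array per group no difference has a replicate check, so every value below is a size on these arrays and no test was made.

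Secreted and membrane proteins enter the ER unfolded, receive a preassembled glycan from the oligosaccharyltransferase and are folded by BiP (HSPA5), by the lectins calnexin and calreticulin and by protein disulfide isomerases. Chains that fail to fold are trimmed, pulled back to the cytosol and destroyed by ERAD. When unfolded protein builds up, the sensors IRE1 (ERN1), ATF6 and PERK start the unfolded protein response, in which spliced XBP1 and cleaved ATF6 bind ER stress elements in the promoters of chaperone genes and raise their transcription.

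The members did not shift as a block. The median log2 ratio to the control over the 34 measured members was 0.00 with siRNA1 and 0.13 with siRNA2, against 0.00 and 0.00 over all 12436 measured genes. Without the probe sets that carry an _s_at or _x_at suffix, which can match related transcripts, the siRNA2 median over 26 members was 0.02. With siRNA1, 16 members lay above the control, 13 below and 5 were equal to it, where 5257 of all 12436 measured genes lay above. With siRNA2, 23 lay above, 9 below and 2 were equal, where 5595 of all measured genes lay above. On the same side with both siRNAs were 14 above, which is 41.2% of the members against 29.2% of all measured genes, and 6 below, against 23.7% of all genes. Under quantile normalisation 14 were above and 10 below, and the shares of all genes under it were not computed. Both ratios use the same control array.

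A gene was counted as apart at 2-fold or more. With siRNA1, 2 members were higher by that measure (ERO1A and HERPUD1) and 2 were lower (HYOU1 and CLGN), or 11.8% of the measured members. The background among all measured genes was 1.87% higher and 1.75% lower, 3.62% together. With siRNA2 none was 2-fold higher and 2 were lower (CLGN and STT3B). Of all genes 2.15% were higher and 1.21% lower, 3.36% together. CLGN was 2-fold apart on the same side with both, as the only member among the 0.281% of all genes lower and 0.716% higher with both (0.997% together). Both of its log2 ratios lay outside the range from the 5th to the 95th percentile of all measured genes, which ran from -0.64 to 0.70 with siRNA1 and from -0.53 to 0.77 with siRNA2. Counts this small come from single genes, so each is given with its values below.

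**Figure D1:**
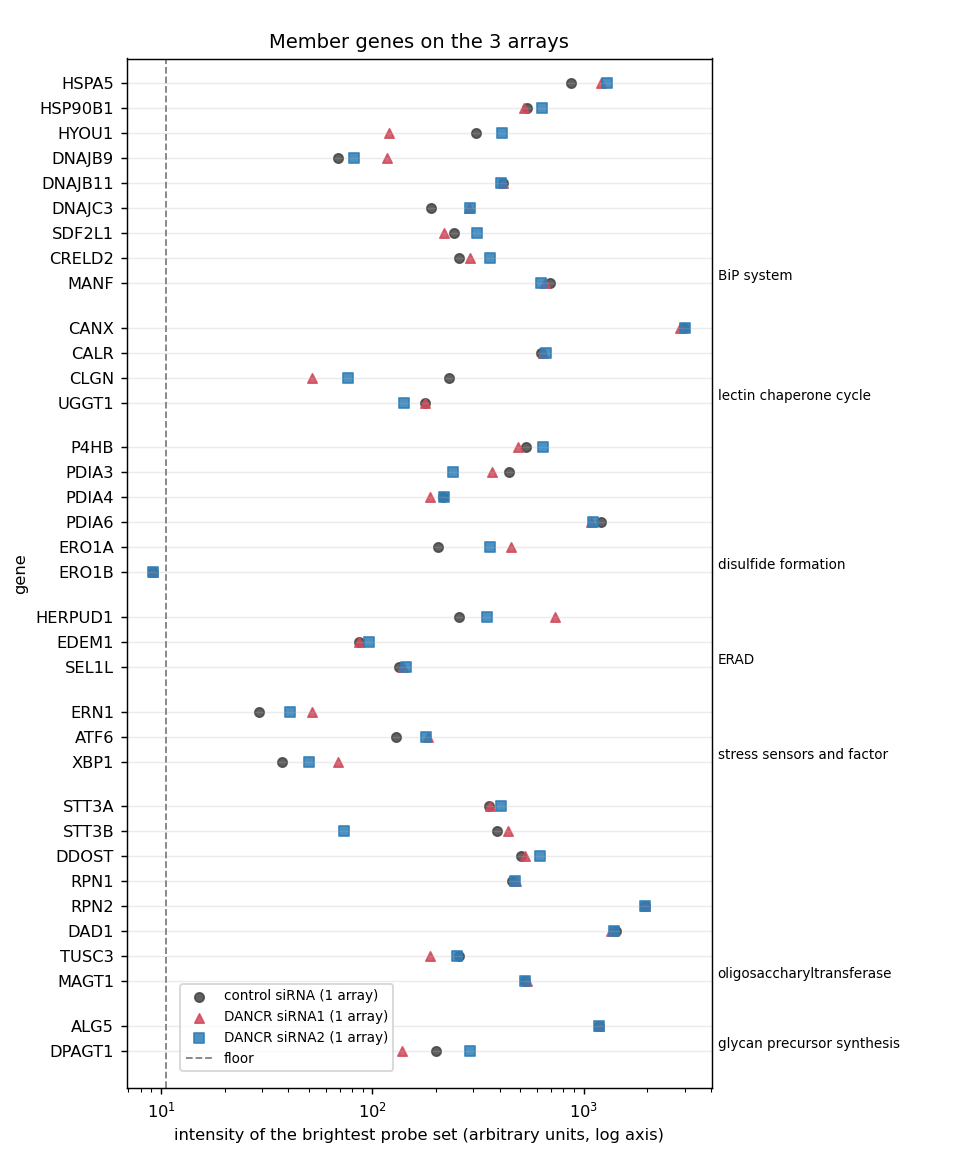
Intensity (arbitrary units, log axis) of the brightest probe set of 35 genes on the control (circles), DANCR siRNA1 (triangles) and DANCR siRNA2 (squares) arrays, 1 array each, grouped by role, with the floor dashed. Most genes have their 3 points close together, and CLGN, HYOU1, HERPUD1 and STT3B show the widest gaps. Intensities of different genes come from different probes and are not comparable.

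**Figure D2:**
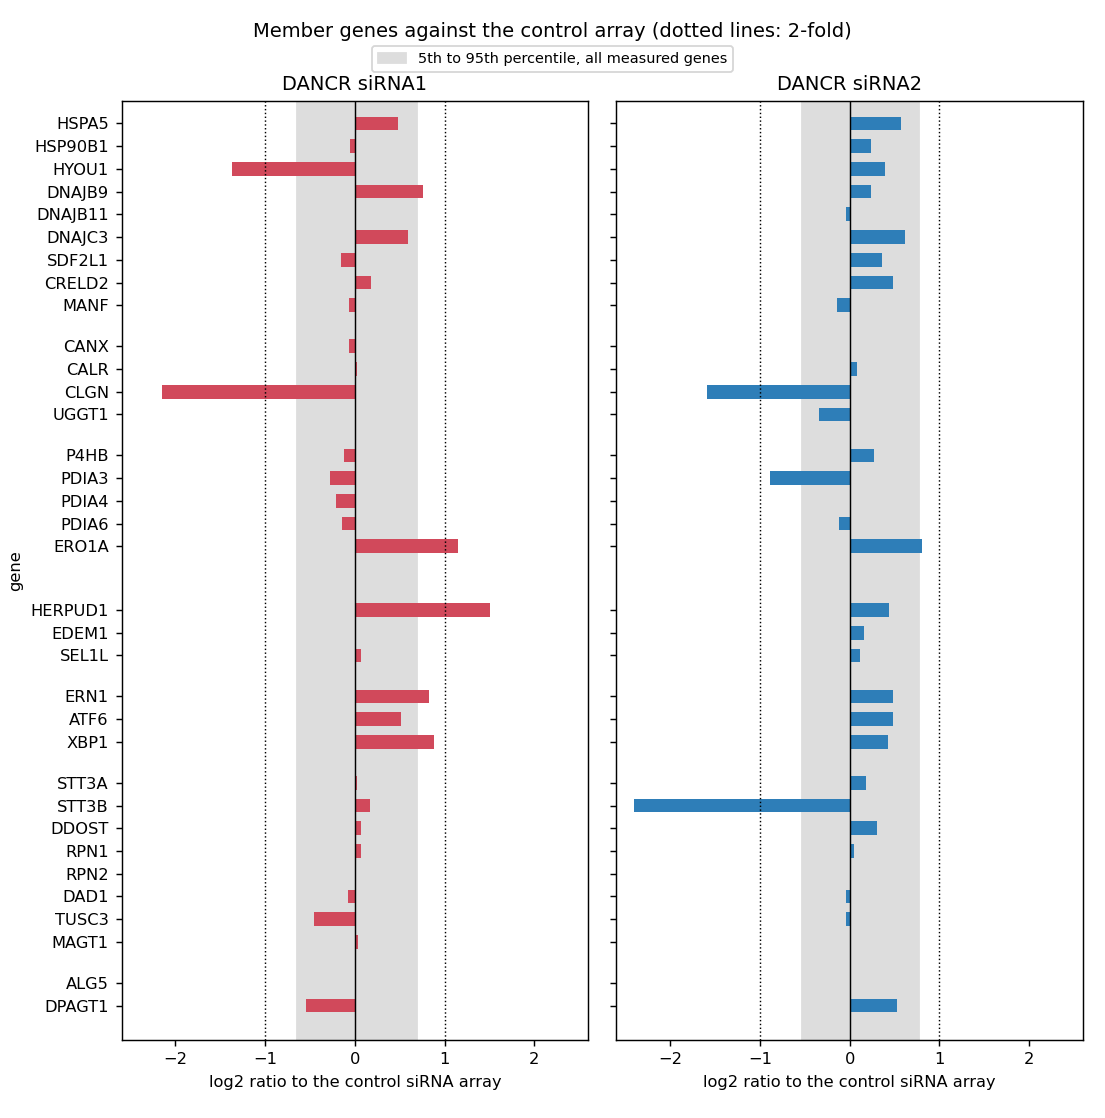
Log2 ratio to the control array for the 34 measured genes, with DANCR siRNA1 on the left and siRNA2 on the right. Grey marks the 5th to 95th percentile of all 12436 measured genes and dotted lines mark 2-fold. CLGN passes the lower line in both panels, HYOU1 only on the left and STT3B only on the right.

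Promoters were searched for elements that some of these genes share. The ER stress element (ERSE) is CCAAT followed by 9 free bases and CCACG, the site that NF-Y and ATF6 bind together, and ERSE-II is ATTGG followed by 1 free base and CCACG. Exact matches were sought on both strands of RefSeq windows (GRCh38.p14) that run from 250 bases before to 50 bases after each annotated start. Windows were at hand for 32 of the 36 members and for 27305 genes in all. ERSE was found in 8 of the 32 members (HSPA5, HSP90B1, CRELD2, CANX, CALR, PDIA6, ERO1B and XBP1), or 25%, and in 0.0916% of all genes with a window. ERSE-II was found in 3 members (HYOU1, SDF2L1 and HERPUD1) and in 0.0696% of all genes with a window. Together 11 of 32 members (34.4%) held 1 or both, against 0.161% of all genes. Members were listed by role and include chaperone genes, for which ER stress elements are known. The contrast therefore describes how the list was drawn up and is no test. A match describes letters only and is not a measured binding site. The ERSE matches are set out below in the direction in which the motif reads, with its fixed bases in capitals, so that the conserved ends and the free middle can be compared.
HSPA5: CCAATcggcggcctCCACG
HSP90B1, farther from the start: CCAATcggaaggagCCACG
HSP90B1, nearer to the start: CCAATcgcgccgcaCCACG
CRELD2: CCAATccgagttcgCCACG
CANX: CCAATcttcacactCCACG
CALR: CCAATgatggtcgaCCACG
PDIA6: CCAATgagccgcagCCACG
ERO1B: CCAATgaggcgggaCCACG
XBP1: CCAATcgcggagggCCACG

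The HSPA5 match ran from 66 to 48 bases before the start and that of XBP1 from 52 to 34 before it. The CANX match was found in the windows of 3 annotated starts, each placing it at another distance. The ATF6 and XBP1 site TGACGTGG, called UPRE here, was found in 1 member, HYOU1, where it overlapped an ERSE-II, and in 0.927% of all genes with a window. The C/EBP-ATF element TGATGNAA (CARE), bound by ATF4, was found in 1 member, HERPUD1, and in 4.46% of all genes with a window. The 250 bases before the start are printed for HSPA5, HERPUD1 and HYOU1, whose matches stand beside 3 different patterns on the arrays, and for CLGN, whose window held none of the 4 motifs. Each runs 5′ to 3′ on the gene's own strand, and capitals mark the fixed bases of the matches.
HSPA5, chr9:125241344-125241593, minus strand: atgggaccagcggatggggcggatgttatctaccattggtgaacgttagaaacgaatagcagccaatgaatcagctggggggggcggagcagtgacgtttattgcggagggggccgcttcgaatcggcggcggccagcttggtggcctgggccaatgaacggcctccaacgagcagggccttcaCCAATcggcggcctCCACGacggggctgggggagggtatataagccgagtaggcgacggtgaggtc
HERPUD1, chr16:56931892-56932141, plus strand: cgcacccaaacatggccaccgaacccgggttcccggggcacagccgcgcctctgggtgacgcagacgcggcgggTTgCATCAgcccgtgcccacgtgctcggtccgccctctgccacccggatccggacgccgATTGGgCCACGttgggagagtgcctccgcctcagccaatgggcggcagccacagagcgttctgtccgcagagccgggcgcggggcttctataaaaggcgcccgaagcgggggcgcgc
HYOU1, chr11:119057206-119057455, minus strand: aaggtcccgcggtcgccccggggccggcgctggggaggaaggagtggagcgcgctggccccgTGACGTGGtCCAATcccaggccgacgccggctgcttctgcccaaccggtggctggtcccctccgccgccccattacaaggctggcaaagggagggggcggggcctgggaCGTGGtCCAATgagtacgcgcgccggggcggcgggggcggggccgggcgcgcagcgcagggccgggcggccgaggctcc
CLGN, chr4:140427649-140427898, minus strand: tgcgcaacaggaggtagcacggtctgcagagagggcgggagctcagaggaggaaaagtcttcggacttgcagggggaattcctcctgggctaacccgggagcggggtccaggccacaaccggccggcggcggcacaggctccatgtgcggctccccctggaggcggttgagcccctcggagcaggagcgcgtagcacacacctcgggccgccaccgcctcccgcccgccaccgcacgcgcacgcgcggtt

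**Figure D3:**
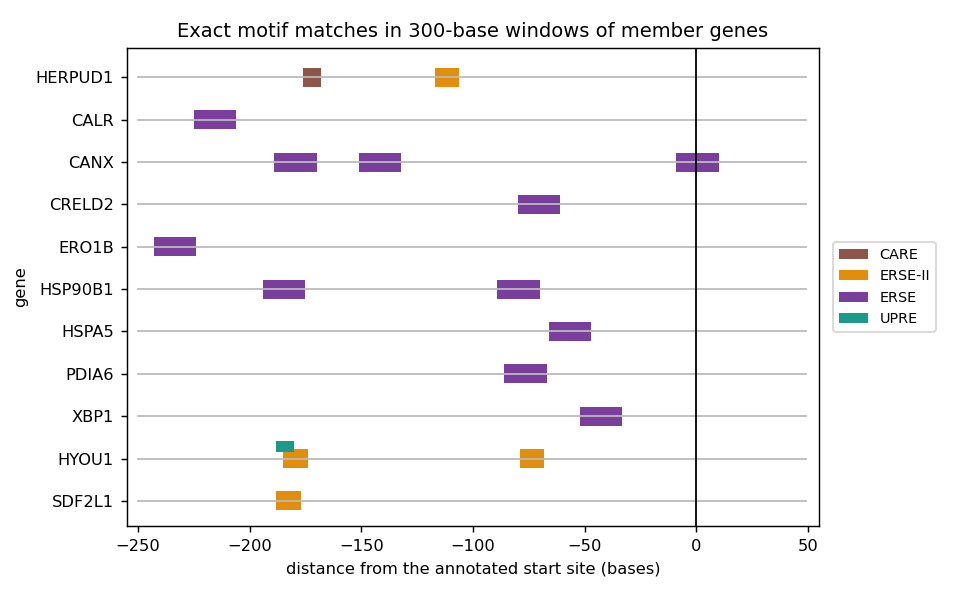
Distance in bases from the annotated start site of each exact match to ERSE, ERSE-II, UPRE and CARE in the 300-base windows of 11 member genes. Grey lines are the windows and the vertical line is the start. The HSPA5 and XBP1 matches lie closest to the start apart from 1 CANX match, and HYOU1 holds 2 ERSE-II matches.

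Members with an element did not share a direction with siRNA1. The 10 measured members with ERSE or ERSE-II had a median log2 ratio of -0.01 with siRNA1, 5 above the control and 5 below, and ran from -1.37 (HYOU1) to 1.5 (HERPUD1). With siRNA2 their median was 0.38, with 9 of 10 above the control and PDIA6 below at -0.12. Of all measured genes with a window, 4398 of 10056 lay above the control with siRNA1 and 4641 with siRNA2. The 20 measured members with a window and neither element had medians of 0.00 and 0.13, with 13 of 20 above the control with siRNA2. The difference between these medians was not tested.

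Among BiP and its partners, 4 of 9 were above the control with both siRNAs (HSPA5, DNAJB9, DNAJC3 and CRELD2), 3 lay on opposite sides of it (HYOU1, SDF2L1 and HSP90B1), and HYOU1 alone was 2-fold apart. HSPA5, the central Hsp70 chaperone of the ER lumen, was at 865 on the control array, 1209 on the siRNA1 array and 1287 on the siRNA2 array, so both DANCR siRNA arrays were above the control by 0.48 and 0.57 (log2). A second, dimmer HSPA5 probe set put both DANCR siRNA arrays below the control, with 114 on the control array, 82.5 on the siRNA1 array and 84.5 on the siRNA2 array. DNAJC3, a J-domain co-chaperone that also inhibits PERK, was at 190 on the control array, 287 on the siRNA1 array and 291 on the siRNA2 array. These are 1.51-fold and 1.53-fold higher, and all 4 of its probe sets lay above the control with both siRNAs. 

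HYOU1, the large Hsp70-like protein that lets BiP release its nucleotide, was at 310 on the control array, 120 on the siRNA1 array and 408 on the siRNA2 array. It was thus 2.59-fold lower with siRNA1 and 1.32-fold higher with siRNA2, on its only probe set, whose suffix is _s_at. DNAJB9, a J-domain protein that presents misfolded clients to BiP and restrains IRE1, was at 69.1, 117 and 81.4 in the control, siRNA1 and siRNA2 arrays. Its log2 ratios were 0.76 and 0.24, and a second probe set, below the floor in the control and not above it with siRNA2, gave at least 2.38-fold higher with siRNA1. CRELD2, a secreted ER stress protein, had log2 ratios of 0.17 and 0.48, and SDF2L1, which joins a BiP complex with DNAJB11, had -0.15 and 0.36. HSP90B1, the Hsp90 of the ER, had -0.05 and 0.23, MANF, a secreted BiP-binding protein, -0.07 and -0.14, and DNAJB11 0.00 and -0.04. Over all 9 the medians were 0.00 with siRNA1 and 0.36 with siRNA2, and over the 6 left without _s_at and _x_at probe sets they were 0.33 and 0.24.

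In the lectin chaperone cycle, which holds glycoproteins while they fold, CLGN stood alone. CLGN, or calmegin, is a calnexin-like chaperone best known from the testis, and it was at 230 on the control array, 51.9 on the siRNA1 array and 76.7 on the siRNA2 array. The control array was the highest, and on its single probe set CLGN was lower by 4.43-fold with siRNA1, where the log2 ratio was -2.15, and had a ratio of -1.58 with siRNA2. Its ubiquitous relative CANX, calnexin, was at 2973, 2842 and 3016 in the same order. The CANX log2 ratios were -0.07 and 0.02 on that probe set, and its 4 measured probe sets ran from -0.07 to 0.30 with siRNA1 and from 0.00 to 0.38 with siRNA2. CALR, calreticulin, the soluble counterpart, had log2 ratios of 0.03 and 0.09. UGGT1, which puts a glucose back on unfolded glycoproteins so that they bind the lectins again, was at 178 on the control array, 178 on the siRNA1 array and 141 on the siRNA2 array. Its 5 probe sets gave log2 ratios of both signs with each siRNA.

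Among the 5 measured disulfide enzymes ERO1A was above the control with both siRNAs, PDIA3 and PDIA6 were below it with both, and P4HB and PDIA4 had ratios of both signs. ERO1A, the oxidase that recharges protein disulfide isomerase, was at 205 on the control array, 454 on the siRNA1 array and 360 on the siRNA2 array. It was 2.22-fold and 1.75-fold higher, and its 3 probe sets lay above the control throughout, from 0.37 to 1.15 (log2) with siRNA1 and from 0.55 to 0.81 with siRNA2. By the median over them (0.80) or on the second-brightest (0.37) it was short of 2-fold with siRNA1. PDIA3, the isomerase that works with calnexin and calreticulin, was at 445, 367 and 241 in the control, siRNA1 and siRNA2 arrays. It was 1.21-fold lower after siRNA1 and 1.84-fold lower after siRNA2, and all 3 of its probe sets lay below the control with both. PDIA6, another isomerase, lay below the control on all 4 probe sets by small amounts, from -0.15 to -0.12 with siRNA1 and from -0.12 to -0.08 with siRNA2. P4HB, the archetypal protein disulfide isomerase, had log2 ratios of -0.12 and 0.27, and PDIA4 had -0.21 and 0.01. ERO1B, the second ERO1 oxidase, was listed at 9.20 on all 3 arrays, below the floor.

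ERAD was led by HERPUD1, a membrane protein that organises the ERAD ligase complex and is itself induced by ER stress. Its intensity was 257 on the control array, 727 on the siRNA1 array and 349 on the siRNA2 array. Both DANCR siRNA arrays were above the control, by 2.83-fold and 1.36-fold, and the siRNA1 array was 2.09-fold above the siRNA2 array. Its second probe set was below the floor on all 3 arrays. EDEM1, a lectin that hands over misfolded glycoproteins, was at 86.9 in the control and with siRNA1 and at 96.8 with siRNA2. SEL1L, the adaptor of the ligase SYVN1, had log2 ratios of 0.07 and 0.11 and lay above the control on its 3 measured probe sets with both siRNAs. 

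The sensors in the set, ATF6 and ERN1, and the factor XBP1 were all above the control with both siRNAs, though none reached 2-fold. PERK (EIF2AK3), a sensor outside the set, lay on opposite sides of the control, with log2 ratios of -0.25 with siRNA1 and 0.18 with siRNA2. ATF6, the sensor that is cut in the Golgi to release a transcription factor, was at 129 on the control array, 184 on the siRNA1 array and 180 on the siRNA2 array. All 4 ATF6 probe sets lay above the control with both, from 0.23 to 0.91 (log2) with each siRNA. The dimmer ones each read the same on both siRNA arrays, at 57.2, 57.2 and 44.5, and why they did was not tested. ERN1, the kinase and nuclease IRE1, was at 29.2, 51.9 and 40.9, near the floor, with ratios of 0.83 and 0.49. Its second measured probe set gave 0.00 and 0.41. XBP1, whose mRNA IRE1 splices, was at 37.2 on the control array, 68.4 on the siRNA1 array and 49.9 on the siRNA2 array, ratios of 0.88 and 0.42. Here the second probe set went the other way, at -0.38 with both, and splicing of XBP1 was not measured. The median over ATF6, ERN1 and XBP1 was 0.83 and 0.48, and 0.42 and 0.45 by the median over each gene's probe sets.

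The oligosaccharyltransferase exists as 2 complexes, built on the catalytic subunits STT3A or STT3B, and 1 of these subunits was far apart on 1 array. STT3B was at 388 on the control array, 436 on the siRNA1 array and 73.3 on the siRNA2 array, so the siRNA2 array was 5.30-fold below the control while the siRNA1 array was 1.12-fold above it. There was no second STT3B probe set. STT3A, which glycosylates chains as they enter the ER, was at 355, 361 and 404 in the same order. MAGT1 and TUSC3, the alternative oxidoreductase subunits of the STT3B complex, did not follow STT3B. MAGT1 was at 526 on the control array, 539 on the siRNA1 array and 526 on the siRNA2 array, and TUSC3 at 258, 188 and 252. 

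Of the shared subunits, RPN1, RPN2 and DAD1 were close to the control on both arrays. DDOST lay above the control on both of its probe sets, at 0.42 (log2) with siRNA2 on the second. RPN1, which presents some substrates to the catalytic subunit, had log2 ratios of 0.06 and 0.05, RPN2 0.00 and 0.00, DAD1 -0.08 and -0.04, and DDOST 0.06 and 0.31. RPN2 was at 1954 in the control and with siRNA1 and at 1956 with siRNA2. Upstream of the transfer, ALG5, which makes the dolichol-linked glucose donor, was at 1186 on all 3 arrays. Such equal values occurred in 12% of all measured genes and in ALG5 alone among the measured members. DPAGT1, which starts the glycan precursor, was at 200 on the control array, 137 on the siRNA1 array and 289 on the siRNA2 array, so the control lay between the siRNA arrays. Its log2 ratios were -0.54 and 0.53, on its only probe set.

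Set against each other, the siRNA arrays were 2-fold apart in 4 of 34 members, or 11.8%, against 3.92% of all measured genes, of which 1.51% were higher with siRNA1 and 2.4% lower. STT3B was 5.95-fold and HERPUD1 2.09-fold higher with siRNA1, and HYOU1 was 3.41-fold and DPAGT1 2.10-fold lower. HERPUD1, HYOU1 and DPAGT1 have no other measured probe set, so they drop out when those with _s_at or _x_at suffixes are left out. Then 2 of 26 members were 2-fold apart, STT3B and, through its other probe set, DNAJB9. Of the 9695 genes measured without such probe sets, 3.89% were 2-fold apart. The median over members was -0.03, and 0.01 without those probe sets.

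Probe sets of the same gene did not always point the same way. Of 21 members with at least 2 measured probe sets, 5 had all of them above the control with both siRNAs (ATF6, DDOST, DNAJC3, ERO1A and SEL1L) and 2 had all below (PDIA3 and PDIA6). Another 9 had probe sets on both sides of the control with at least 1 siRNA, among them HSPA5, XBP1, UGGT1, P4HB and TUSC3. The remaining 5 had 1 sign or exact equality. The dimmer probe sets of ATF6, the third-brightest of DNAJC3 and the second of PDIA4 and of XBP1 had equal values on both siRNA arrays. Their ratios with the siRNAs therefore match exactly. Others, such as the second-brightest of CANX and of RPN2, were equal on all 3 arrays, as were 32.1% of all probe sets on the arrays. CLGN, HYOU1, STT3B and DPAGT1 were represented by 1 probe set each, so this check was not possible for them.

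**Figure D4:**
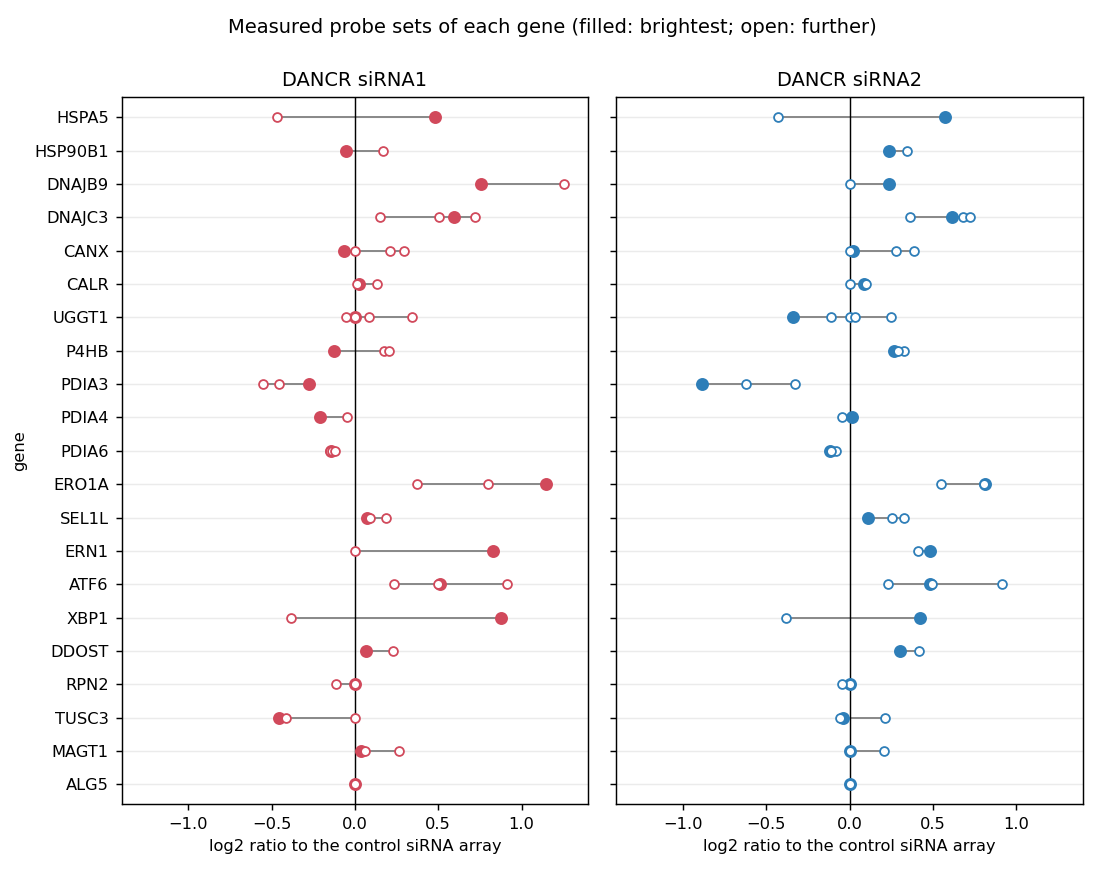
Log2 ratio to the control array of every measured probe set, for the 21 genes with at least 2, with DANCR siRNA1 on the left and siRNA2 on the right. Filled points are the brightest probe set, open points the others, and a grey line joins the lowest to the highest. ATF6, DNAJC3 and ERO1A lie wholly to the right of 0 in both panels and PDIA3 wholly to the left, whereas HSPA5 and XBP1 cross it.

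The rest of the pathway was read from further lists of named genes. Of 23 measured ERAD genes outside the set, 14 were above the control with both siRNAs and 3 below, or 13 and 6 under quantile normalisation, with medians of 0.13 and 0.11 and none 2-fold apart. Over the 16 left without _s_at and _x_at probe sets the medians were 0.06 and 0.07. AUP1, a lipid droplet and ERAD protein, was at 261, 355 and 350.5 in the control, siRNA1 and siRNA2 arrays. EDEM3, a mannosidase that marks glycoproteins for ERAD, was at 47.4, 91.9 and 59.2, and its 3 probe sets lay above the control with both. Of 22 further genes of N-glycan assembly and transfer, 12 were above the control with both and 1 below, or 12 and 4 under quantile normalisation, with medians of 0.23 and 0.22, or 0.15 and 0.15 over the 19 left without those probe sets. ALG2, a mannosyltransferase of the precursor, was at 179, 307 and 452, or 1.71-fold and 2.53-fold higher. A dim second ALG2 probe set was equal on all 3 arrays. KRTCAP2, a subunit of the STT3A complex, was at 636, 876 and 808.

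Of 6 measured genes of glycan trimming, 2 were above the control with both. MAN1A1, a mannosidase of the Golgi, was at 72.1, 170 and 143, or 2.35-fold and 1.98-fold higher, and its second probe set was below the floor. GANAB, the catalytic subunit of glucosidase II, was at 151, 204 and 284, with a second probe set at 0.55 and 1.11 (log2). Of 8 genes that process or resemble ATF6, 4 were above the control with both and 1 below. MBTPS1, the protease that makes the first cut in ATF6, was at 45.9, 66.5 and 75.2, and its dim second probe set gave -0.13 and 0.00. CREB3L2, an ATF6-like factor, was at 52.2, 64.5 and 75.8. In the PERK and ATF4 arm, 7 of 10 genes were above the control with both and none below, with medians of 0.65 and 0.20. Without _s_at and _x_at probe sets 8 were left, and the medians were 0.22 and 0.20. On the brightest probe sets 5 of 10 were 2-fold higher with siRNA1 and none with siRNA2, against 1.87% and 2.15% of all measured genes. DDIT3, the factor that ATF4 induces, was at 47.6, 182 and 89.5, and SESN2 at 35.8, 86.9 and 60.3, with both SESN2 probe sets above the control. The counts above or below the control with both siRNAs on the deposited scale stand against 29.2% of all measured genes above and 23.7% below. The shares of all genes under quantile normalisation were not computed, so the counts given under it have no such background.

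**Figure D5:**
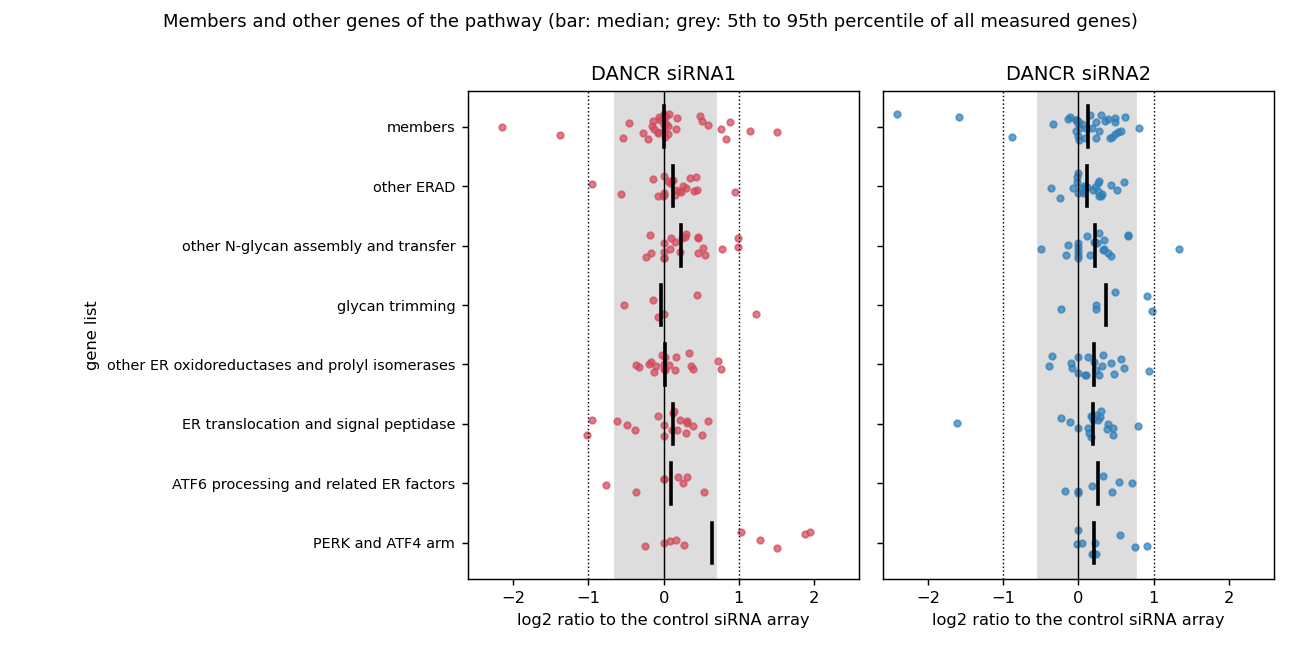
Log2 ratio to the control array of each measured gene in the 34-member set and in the other pathway lists, with DANCR siRNA1 on the left and siRNA2 on the right. Black bars are medians, grey marks the 5th to 95th percentile of all measured genes and dotted lines mark 2-fold. The PERK and ATF4 list has its median at 0.65 on the left and at 0.20 on the right, or 0.22 and 0.20 without _s_at and _x_at probe sets, and the member set is centred near 0 with single genes far out.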

How the data were processed

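Expression was measured in UM-UC-3 cells on 3 Affymetrix arrays of 54675 probe sets, 1 per siRNA. The deposited values are intensities on a linear scale that the authors had brought to a common scale, by a method not given in the sources used here; the submitters' processing notes name GCOS 1.4. Array medians were 10.5 on all 3. Probe sets with 1 gene in the supplied annotation (41091) were used, and 1801 with several genes and 11777 with none were not. Symbols were updated by gene identifier.

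Intensities below a floor, the 50th percentile of all values (10.5), were raised to it, and a gene was measured with at least 1 array above it. The probe set with the highest mean stood for its gene, and log2 ratios were taken between arrays. Genes at 2-fold or more (log2 of 1) were counted. No p-value was computed, since each group had 1 array, and the number of arrays limits the precision. The counting step was checked on simulated data with known changes, which says nothing on the real counts. All members are named, and from each other list the 2 genes with the largest smaller ratio on the same side with both siRNAs, plus any gene 2-fold with both. PERK was added as a sensor outside the set. Members, lists and rule were chosen with earlier results of these data known. Motifs were matched exactly, as strings. Alternatives were other scalings, floors, probe set choices and thresholds, and the mean over members. Python 3.11.15, numpy 2.4.6, pandas 2.3.3 and matplotlib 3.10.9 were used.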

Additional observations from a re-analysis of the deposited data

Results flagged for a closer look

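Members that lay on opposite sides of the control with the 2 siRNAs, at 2-fold or more with 1 of them, were singled out. HYOU1 was lower with siRNA1 (-1.37 on the log2 scale) and higher with siRNA2 (0.40), a difference of -1.77 between the siRNA arrays. STT3B was higher with siRNA1 (0.17) and lower with siRNA2 (-2.41), a difference of 2.57. Each rests on 1 probe set and 1 array per group, and the difference was not tested. Of all measured genes, 22% lay on opposite sides of the control, at any size, as did 8 of the 34 measured members. The share of all genes that meet the full rule was not computed.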

How the results depend on the processing

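The main counts were 4 members 2-fold apart with siRNA1, 2 with siRNA2, 4 between the siRNA arrays and 1 on the same side with both. They were the same with either other scaling, with the floor moved to the 30th or to the 70th percentile or removed, and by the median over probe sets, where DNAJB9 took the place of ERO1A with siRNA1. By that median 2.4%, 2.39%, 2.82% and 0.675% of all genes were apart, in the order of these counts. At a threshold of 1.5-fold the counts against the control were 8 with siRNA1, 5 with siRNA2 and 3 with both, against 13.2%, 13.03% and 4.79% of all measured genes. Between the siRNA arrays only PDIA3, at 1.52-fold, joined the 4 members at that threshold, against 13.8% of all measured genes. At 3-fold they were 1, 1 and 0, with 2 between the siRNA arrays, against shares of all genes of 0.482%, 0.547%, 0.0965% and 0.619%. Without probe sets of _s_at and _x_at suffix, 2 members were apart between the siRNA arrays and 3 with siRNA1, where HYOU1 and HERPUD1 dropped out and DNAJB9 came in. The shares of the 9695 genes measured without them were 3.89% and 3.41%. The second-brightest probe set was measured for 21 members, which do not include CLGN, HYOU1 or STT3B. On it the counts were 1 with siRNA1, 0 with siRNA2, 1 between the siRNA arrays and 0 with both, DNAJB9 being the member. The shares of the 6015 genes measured on it were 2.96%, 2.99%, 3.39% and 0.748% in the same order. The members' medians on it were 0.00 with each siRNA. This alternative for the counts and medians was chosen after seeing the data. The members' medians moved by less than 0.15 (log2), the median absolute difference between the siRNA arrays over all measured genes, under each alternative run. They ranged from 0.00 to 0.05 with siRNA1, apart from -0.00436 under quantile normalisation, and from 0.00 to 0.14 with siRNA2. That limit exceeds the siRNA2 median itself (0.13), which fell to 0.02 without _s_at and _x_at probe sets and to 0.00 on the second-brightest. No ratio of a member that was 2-fold apart changed sign, and ERO1A with siRNA1 fell below 2-fold by the median over probe sets (0.80) and on the second-brightest (0.37). CLGN, HYOU1, HERPUD1, STT3B and DPAGT1 have 1 measured probe set each, so only scaling and floor could move their ratios. For them the kept sign says little. No paired analysis was possible because each group had 1 array. Signal over background limits ERN1 and XBP1 most among the measured members, with control intensities of 29.2 and 37.2 against the floor.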

Other observations

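ER entry and further folding enzymes gave values not described above. Of 19 measured genes of translocation and signal peptide cleavage, 9 were above the control with both siRNAs and 1 below, with medians of 0.13 and 0.19 (log2), or 0.02 and 0.13 over the 17 left without _s_at and _x_at probe sets. SIL1, a nucleotide exchange factor for BiP, was at 60.8 on the control array, 91.9 on the siRNA1 array and 106 on the siRNA2 array. DNAJC1, a J-domain protein of the ER membrane, was at 465, 663 and 603, though of its 3 probe sets 1 gave -0.03 with siRNA2. SEC61A1, the pore of the translocon, chosen after its values were seen, was at 458, 503 and 149, or 3.07-fold lower with siRNA2, while a dim second probe set gave 0.20 and 0.00. SPCS3, a signal peptidase subunit also chosen after its values were seen, was at 895, 441 and 1100, with ratios of -0.29 and 0.05 on a second probe set and of -0.04 and 0.06 on another. Of 19 measured further oxidoreductases and prolyl isomerases, 7 were above the control with both and 1 below. The counts of both lists stand against 29.2% of all measured genes above with both and 23.7% below. PRDX4, the ER peroxiredoxin, was at 1273, 2168 and 1940, and QSOX2, a sulfhydryl oxidase, at 170, 218 and 235.

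Outside the member set, 33 genes had an exact ERSE or ERSE-II match in their promoter windows, and 20 of them were measured. Their medians were -0.01 with siRNA1 and 0.03 with siRNA2. With both siRNAs 5 lay above the control and 5 below, against 29.2% and 23.7% of all measured genes. The 3 that were 2-fold apart with 1 siRNA were NAV2 (-1.22 with siRNA1), SYNPO (-1.13 with siRNA1) and GYS1 (1.16 with siRNA2). Of all measured genes 3.62% were 2-fold apart with siRNA1 and 3.36% with siRNA2. SERP1, which protects membrane proteins during ER stress, had 0.07 and 0.17, and FICD, which modifies BiP, 0.33 and 0.38, both chosen after their values were seen.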
